A study of Mus musculus with 18 samples.

Results

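The 9 genes described here, *Slc1a2*, *Slc1a3*, *Glul*, *Slc6a11*, *Kcnj10*, *Slc4a4*, *Gja1*, *Gjb6* and *Aqp4*, encode proteins with which astrocytes clear transmitter, buffer potassium and couple to each other. They were chosen by name, and the counts of all 62 transcripts listed under these names were summed per gene, out of 116873 transcripts under 35823 gene names in the whole table. RNA came from brains of 10-month-old mice with a C57BL/6 background. The KIN mice were homozygous for *Atxn2*-CAG100-KIN, a pure CAG repeat placed in mouse *Atxn2* in every cell of the body, and the WT mice were littermates. Per the study's methods, KIN and WT mice formed pairs matched by sex. Both sexes were among the pairs, with more male than female pairs, and sex was not a term in the tests. From each brain, microglia (anti-CD11b beads), astrocytes (anti-ACSA-2 beads) and neurons (removal of non-neuronal cells) were isolated one after the other, with 3 libraries for each fraction and genotype and 18 in all. The fractions are enriched, not pure, and the counts hold no measure of the repeat, so they do not check the genotype labels.

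Glutamate released at synapses is taken up mainly by astrocytes, through GLT-1 (*Slc1a2*) and GLAST (*Slc1a3*), and glutamine synthetase (*Glul*) converts it to glutamine that returns to neurons. The inward rectifier Kir4.1 (*Kcnj10*) lets astrocytes take up potassium, connexins 43 (*Gja1*) and 30 (*Gjb6*) form the gap junctions between them, and aquaporin-4 (*Aqp4*) is the water channel of their endfeet at blood vessels. GAT-3 (*Slc6a11*) takes up GABA, and NBCe1 (*Slc4a4*) moves sodium with bicarbonate across the membrane.

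The stretches of DNA at the start sites of 4 of the genes are shown because 3 of them fell in KIN astrocytes and the fourth, *Slc1a3*, did not pass the criterion. They were taken from RefSeq on GRCm38.p6 and run from 250 bases before to 50 bases after an annotated start. Stretches of 8 of the 9 genes were searched, all but *Aqp4*. Capitals mark matches on either strand to the letters of 5 motifs, which did not overlap each other here. The motifs were those of AP-1, STAT, NFI (only a part of its site), the GC box and the TATA box, and the letters of each stand with its result.
*Slc1a2*, chr2:102706188-102706487, plus strand: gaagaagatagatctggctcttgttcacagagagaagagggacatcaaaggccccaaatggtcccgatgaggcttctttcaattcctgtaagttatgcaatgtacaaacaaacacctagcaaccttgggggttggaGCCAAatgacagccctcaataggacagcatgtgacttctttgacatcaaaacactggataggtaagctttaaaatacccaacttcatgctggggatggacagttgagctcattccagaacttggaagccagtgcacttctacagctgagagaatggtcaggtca
*Slc6a11*, chr6:114130991-114131290, plus strand: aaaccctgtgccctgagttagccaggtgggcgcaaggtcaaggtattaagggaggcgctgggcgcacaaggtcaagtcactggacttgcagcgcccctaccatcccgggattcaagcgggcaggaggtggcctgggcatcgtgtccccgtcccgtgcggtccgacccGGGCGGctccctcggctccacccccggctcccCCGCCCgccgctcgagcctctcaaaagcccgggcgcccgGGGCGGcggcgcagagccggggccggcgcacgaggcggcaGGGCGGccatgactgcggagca
*Gja1*, chr10:56377050-56377349, plus strand: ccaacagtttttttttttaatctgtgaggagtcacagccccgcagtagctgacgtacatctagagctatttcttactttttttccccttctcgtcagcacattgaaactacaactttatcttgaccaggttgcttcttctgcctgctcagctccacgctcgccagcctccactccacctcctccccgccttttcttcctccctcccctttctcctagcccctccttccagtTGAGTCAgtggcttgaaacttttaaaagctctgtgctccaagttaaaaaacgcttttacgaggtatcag
*Slc1a3*, chr15:8710758-8711057, minus strand: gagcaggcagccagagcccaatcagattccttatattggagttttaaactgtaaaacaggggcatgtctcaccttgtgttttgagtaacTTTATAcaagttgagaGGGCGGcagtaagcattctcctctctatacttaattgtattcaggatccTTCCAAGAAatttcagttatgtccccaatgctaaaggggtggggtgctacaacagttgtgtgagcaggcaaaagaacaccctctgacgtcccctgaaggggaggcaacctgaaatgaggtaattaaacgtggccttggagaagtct
Each stretch matched GRCm39 exactly at 1 place. The *Slc1a2* stretch belongs to the start at position 102536783, 48209 bases downstream of the start of ENSMUST00000080210, the transcript with 73.5% of the *Slc1a2* reads in astrocytes, so it is not the promoter of that transcript. The starts in *Slc6a11*, *Gja1* and *Slc1a3* lay within 24 bases of that of the most abundant transcript. The *Slc1a2* stretch held 1 partial NFI site, searched as TTGGC, a match found in 46.7% of all 32851 stretches of this length. *Slc6a11* had 4 GC boxes, read as GGGCGG, a match present in 35.7% of all stretches, and a GC content of 72.3%, against 45.7% in *Slc1a2* and 47.7% in *Gja1*. The AP-1 motif, TGANTCA, occurred in *Gja1* and in 7.81% of all stretches. The *Slc1a3* stretch held the STAT motif, TTCNNNGAA, which 8.3% of all stretches share. It also held 1 GC box and 1 TATA box, read as TATAAA and present in 13.6% of all stretches. Of the genes not printed, *Glul*, *Kcnj10* and *Slc4a4* held both partial NFI sites and GC boxes, and *Gjb6* held none of the motifs. A match of letters is a description of the sequence and was not tested for binding.

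The depth behind these values was moderate. Total counts per library ranged from 2118317 to 3296398 in the glial fractions and from 761481 to 2017932 in the neuronal fraction, where the KIN libraries were deeper than the WT libraries. The 10 most abundant transcripts held 76.0 to 85.7% of each library, so that 109260 to 649157 counts were left for everything else. Levels are given as CPM, counts relative to library size, scaled by edgeR's TMM factors over all 18 libraries. Reads were counted in 3′-end libraries without a scale per length, so levels are compared between groups and not between genes. A level of 3 counts in a library was taken as the floor, which is 0.863 to 1.53 CPM in the glial and 1.92 to 3.99 CPM in the neuronal libraries and covers counting error only. Each comparison of 3 with 3 libraries used edgeR's quasi-likelihood test on all genes that had 5 reads or more in no fewer than 2 of the libraries. Calls required a log2 fold change (log2FC) of 1 or more in either direction, and a *p* of 0.05 or less after Benjamini-Hochberg adjustment over all genes tested.

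The 9 genes marked the astrocyte fraction. Each of the 9 genes was higher in WT astrocytes than in WT microglia by this criterion, as were 13.7% of all 12157 genes tested, and each was higher than in WT neurons, as were 12.3% of all genes. Against KIN microglia 8 of 9 were higher in KIN astrocytes (20.3% of all genes), and against KIN neurons 9 of 9 were (16.3% of all genes). These counts describe the fractions and say little on their own, since the genes were picked as astrocyte genes and several passed the filter on low counts through the astrocyte libraries alone. Of 11 other astrocyte markers (*Aldh1l1*, *Aldoc*, *Gfap* and others), all had reads in WT and KIN astrocytes, with summed levels of 609.7 to 927 CPM in WT.

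In KIN astrocytes, 6 of the 9 genes fell and none rose: *Slc1a2*, *Glul*, *Slc6a11*, *Slc4a4*, *Gja1* and *Gjb6* were at 35.4 to 44.9% of their WT level by the fitted fold. Of all 11751 genes tested in this fraction, 6.42% were called lower and 2.43% higher in KIN. *Kcnj10* passed on adjusted *p* but not on size, and *Slc1a3* and *Aqp4* passed on neither. The log2FC of the 9 genes ran from −1.50 to −0.50 with a median of −1.31, beside a median of 0.00 over all genes tested. For 8 of 9 genes the KIN and WT libraries did not overlap, with KIN lower, which was so for 14.1% of all genes tested. The mice were separate animals per the study's methods, and *p*-values measure the spread between these libraries. A smaller share of astrocytes in the fraction and less RNA per astrocyte cannot be told apart in such bulk libraries. The study counted more isolated astrocytes from KIN than from WT brains.

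**Figure D1:**
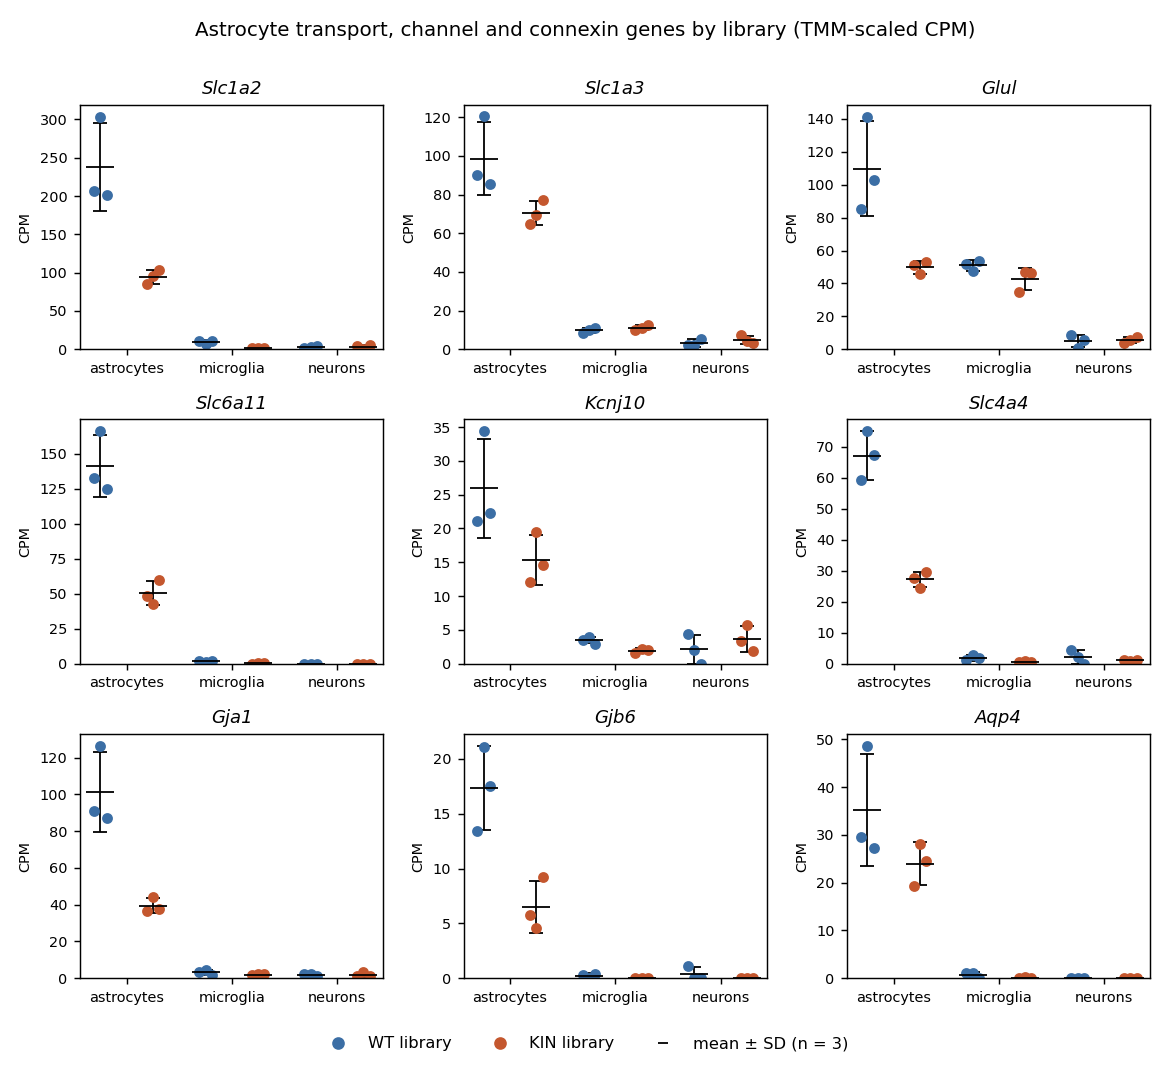
TMM-scaled CPM of the 9 genes in each of the 18 libraries (y axis, from 0; points are libraries, blue WT and orange KIN), by fraction, with the mean and SD of 3 libraries as bars. The mean of the WT astrocyte libraries is the highest for each gene, with single libraries at 202 to 304 CPM for *Slc1a2* against 85.5 to 103 CPM in KIN astrocytes.

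Among the genes of transmitter clearance, *Slc1a2* (chr2:102488574-102621129 on GRCm39, plus strand) was at 207, 304 and 202 CPM in the WT astrocyte libraries and at 85.5, 95.2 and 103 CPM in the KIN astrocyte libraries. Each KIN library was below each WT library. The log2FC was −1.34 ± 0.22 (SE; edgeR adjusted *p* = 2.96e-05). *Slc6a11* (chr6:114108200-114226913, plus strand), the GABA transporter, had 133, 166 and 125 CPM in WT and 48.6, 43.0 and 59.7 CPM in KIN astrocytes. Its log2FC was −1.50 ± 0.22 (edgeR adjusted *p* = 3.61e-06), again with no overlap.

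*Glul* (chr1:153775690-153785469, plus strand), which makes glutamine from the glutamate taken up, was at 85.3, 142 and 103 CPM in WT and at 50.9, 45.5 and 52.8 CPM in KIN astrocytes. The groups did not overlap, with a log2FC of −1.15 ± 0.22 (edgeR adjusted *p* = 2.09e-04). Without WT replicate 2, its log2FC was −0.93 and it no longer reached the required size. *Slc1a3* (chr15:8663604-8741595, minus strand), the other glutamate transporter, was at 89.9, 120.4 and 85.4 CPM in WT and at 64.7, 69.6 and 77.3 CPM in KIN astrocytes. These groups did not overlap either, but the log2FC of −0.50 ± 0.21 did not pass (edgeR adjusted *p* = 0.119). The difference between both transporters was not tested.

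For ion transport, *Slc4a4* (chr5:89034345-89387514, plus strand) was at 59.2, 75.0 and 67.3 CPM in WT and at 27.6, 24.6 and 29.5 CPM in KIN astrocytes, with no overlap. Its log2FC was −1.31 ± 0.21 (edgeR adjusted *p* = 2.20e-05). *Kcnj10* (chr1:172168765-172201652, plus strand), the potassium channel, had 21.1, 34.4 and 22.2 CPM in WT and 12.1, 19.4 and 14.5 CPM in KIN astrocytes. The closest WT and KIN libraries were 21.1 and 19.4 CPM, and the log2FC was −0.81 ± 0.24 (edgeR adjusted *p* = 0.0186), which misses the required size. The adjusted *p* was 0.0842 with DESeq2, and by edgeR 0.0623 without WT replicate 2, 0.144 without KIN replicate 1 and 0.108 without KIN replicate 3.

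Both connexins fell by similar amounts. *Gja1* (chr10:56253241-56278609, plus strand) was at 90.9, 127 and 87.0 CPM in WT and at 36.5, 44.0 and 37.5 CPM in KIN astrocytes, a log2FC of −1.39 ± 0.22 (edgeR adjusted *p* = 1.30e-05). *Gjb6* (chr14:57360757-57371087, minus strand) was at 13.4, 21.1 and 17.5 CPM in WT and at 5.76, 4.605 and 9.18 CPM in KIN astrocytes, a log2FC of −1.41 ± 0.27 (edgeR adjusted *p* = 2.79e-04). The KIN values of *Gjb6* rest on 20, 9 and 24 reads, and those of *Gja1* on 127, 86 and 98. No KIN library of either connexin reached a WT library. *Aqp4*, on chromosome 18, was the gene whose groups overlapped, at 29.6, 48.7 and 27.2 CPM in WT and 19.3, 28.1 and 24.5 CPM in KIN astrocytes. Its log2FC was −0.59 ± 0.23 (edgeR adjusted *p* = 0.0841). Without WT replicate 2 it was −0.29.

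**Figure D2:**
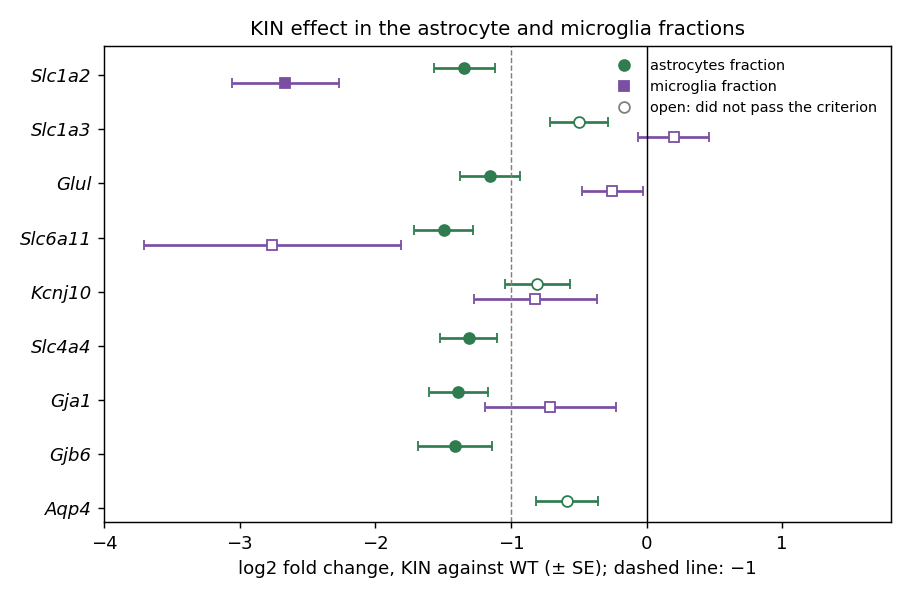
The log2FC of KIN against WT (x axis, ± SE, from edgeR on 3 with 3 libraries) for the 9 genes in the astrocyte fraction (green circles) and, for the 6 genes tested there, in the microglia fraction (purple squares). Filled symbols passed the criterion, which were 6 genes in astrocytes and *Slc1a2* in microglia, and the dashed line marks −1.

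One library and the scaling moved these values together. The WT astrocyte library of replicate 2 was the highest of its group for 9 of 9 genes, by a median of 0.34 on the log2 scale above the group means. Its markers of other cells also stood apart from those of WT replicates 1 and 3, with neuron markers at 41.9 CPM in sum against 128 and 105 CPM, oligodendrocyte markers at 692 against 449 and 463 CPM, and the other astrocyte markers at 927 against 609.7 and 648 CPM; their part in its levels was not tested. Without it 5 of the 9 genes were called lower, as they were with the KIN library of replicate 2 left out as well. The TMM factors were 1.33 to 1.51 in the WT and 0.789 to 1.23 in the KIN astrocyte libraries, so scaling and genotype went together. With library totals and no such factors, the median of all genes shifted by −0.42, the log2FC of the 9 genes ran from −1.91 to −0.93, and 8 of 9 were called lower, *Kcnj10* (−1.25) and *Aqp4* (−1.03) in addition. Over all genes, this scaling called 1596 lower and 38 higher in place of 754 and 285. With DESeq2's size factors the count was 6. The 9 genes were lower in KIN astrocytes under each alternative run for this comparison.

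**Figure D3:**
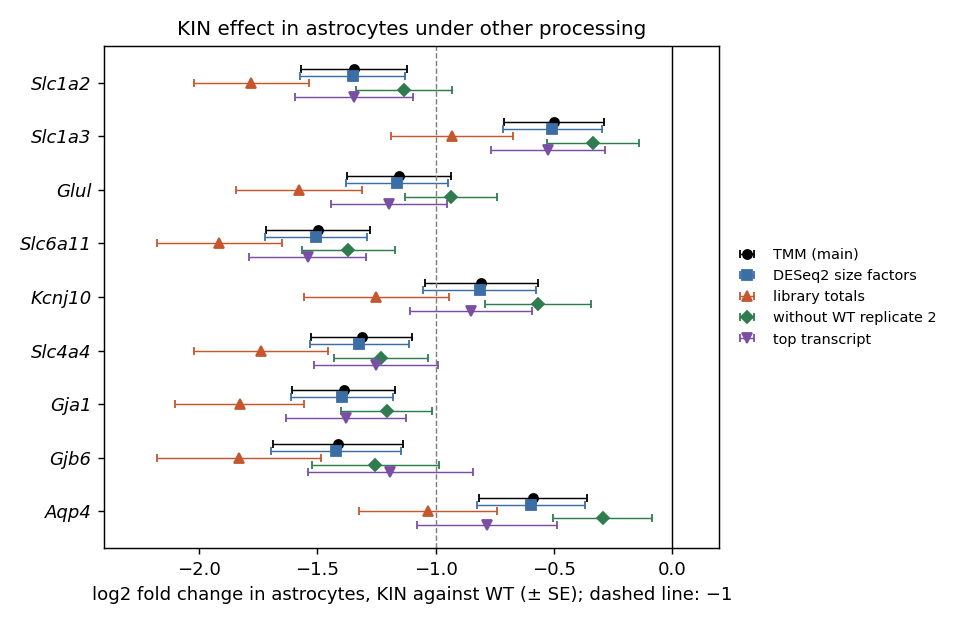
The log2FC of KIN against WT in astrocytes (x axis, ± SE) for the 9 genes with TMM scaling, DESeq2's size factors, library totals, without WT replicate 2, and with each gene's most abundant transcript in place of the sum. Library totals (orange triangles) move each gene lower, to between −1.91 and −0.93, and leaving out WT replicate 2 (green diamonds) moves each closer to 0.

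Other markers moved in the same fraction. The 11 astrocyte markers outside the 9 genes had a median log2FC of −0.66 in KIN astrocytes, and their summed level was 445 to 491 CPM in KIN against 609.7 to 927 CPM in WT. Of these 11, 4 were called lower (*Mfge8*, *Ndrg2*, *Fgfr3* and *Atp1b2*) and 1 higher, *Vim*, an intermediate filament gene, at 11.7 ± 3.79 CPM in KIN against 2.85 ± 0.914 CPM in WT (SD, n = 3; log2FC 1.97 ± 0.34, edgeR adjusted *p* = 4.33e-05). *Atp1b2*, which encodes the protein that carries the ACSA-2 antigen used for the isolation, was at 140 CPM in WT and 68.6 CPM in KIN (log2FC −1.05 ± 0.22, edgeR adjusted *p* = 6.21e-04). *Sox9* (log2FC −0.11 ± 0.23, edgeR adjusted *p* = 0.839) and *Acsbg1* (−0.31 ± 0.21, edgeR adjusted *p* = 0.375) did not pass.

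Markers of other cells also moved with genotype in the astrocyte fraction. Of 10 neuron markers, 8 were called lower (median log2FC −1.94), with sums of 41.9 to 128 CPM in WT and 34.8 to 56.6 CPM in KIN. The 8 oligodendrocyte markers summed to 449 to 692 CPM in WT and 787 to 799 CPM in KIN, with *Mog* and *Cnp* called higher. The 4 ependymal markers, with no call by edgeR, summed to 29.9 to 34.1 CPM and 52.1 to 56.3 CPM, and the 5 precursor markers of oligodendrocytes to 30.4 to 43.8 CPM and 51.8 to 57.3 CPM. The 6 early response genes that rise on dissociation summed to 46.3 to 60.4 CPM in WT and 77.7 to 97.8 CPM in KIN, with *Egr1* called higher. Microglia markers were near 0, at 4.89 to 10.3 CPM in sum, with *P2ry12* and *Aif1* at 0 in WT and *Tmem119* at 0 in KIN. Endothelial markers summed to 42.8 to 49.0 CPM in WT and 38.0 to 70.1 CPM in KIN, and mural markers to 22.6 to 30.5 CPM and 27.9 to 42.0 CPM. By region, *Mfge8*, a marker of telencephalic astrocytes, was at 87.7 CPM in WT and 35.0 CPM in KIN, and *Lhx2*, another, at 7.19 and 5.39 CPM (log2FC −0.38 ± 0.32, edgeR adjusted *p* = 0.505). *Agt* and *Itih3*, markers of astrocytes outside the telencephalon, summed to 71.9 to 120.4 CPM in WT and 27.9 to 29.6 CPM in KIN. The markers of Bergmann glia, astrocytes of the cerebellum, were low, at 6.33 to 15.6 CPM. The part of these shifts in the levels of the 9 genes was not tested.

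**Figure D4:**
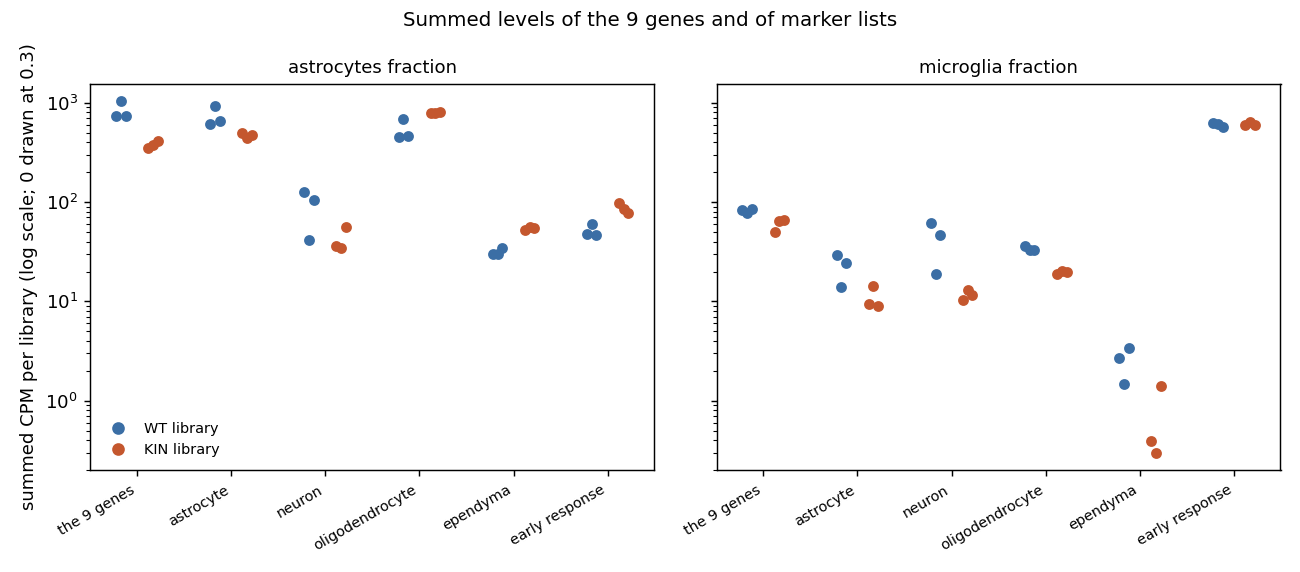
Summed TMM-scaled CPM per library (y axis, log scale, a sum of 0 drawn at the lower edge) of the 9 genes and of 5 marker lists in the astrocyte (left) and microglia (right) fractions, with 3 WT (blue) and 3 KIN (orange) libraries each. In astrocytes the 9 genes summed to 729 to 1038 CPM in WT and 351 to 408 CPM in KIN, while the oligodendrocyte, ependymal and early response lists lay higher in KIN.

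Genes of the same functions that are not among the 9 were read from 4 lists. Of 18 tested genes of transmitter uptake and the glutamate-glutamine cycle, 3 were called lower and none higher in KIN astrocytes (median log2FC −0.48). These were *Slc6a9*, the glycine transporter GlyT1 (30.6 against 14.5 CPM, log2FC −1.06 ± 0.23, edgeR adjusted *p* = 1.26e-03), *Slc7a10* (30.2 against 14.1 CPM, −1.10 ± 0.23, adjusted *p* = 8.24e-04) and the metabotropic glutamate receptor *Grm5* (adjusted *p* = 4.05e-04). *Grm5* had 10, 7 and 17 reads in WT and 0, 1 and 1 in KIN, under the floor, which makes it at least 3.13-fold lower. Its WT levels were 3.52, 2.27 and 5.32 CPM, lowest in replicate 2, which also had the lowest neuron markers. The part of neuronal RNA in this fall was not tested. Of 18 genes of potassium and ion balance, 3 were called lower and 1 higher (median −0.55). Among those that fell were *Atp1b2* and *Atp1b1*, beta subunits of the sodium pump (*Atp1b1* log2FC −1.01 ± 0.30, edgeR adjusted *p* = 0.0194; 19.0, 6.17 and 18.2 CPM in WT and 6.62, 5.63 and 9.18 CPM in KIN, so that WT replicate 2, the WT library with the lowest neuron markers, overlapped with KIN), and the anion exchanger *Slc4a2* rose (13.0 against 28.8 CPM, 1.15 ± 0.23, adjusted *p* = 5.52e-04).

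None of 5 tested connexins and their partners passed with edgeR, and 1 had an unadjusted *p* under 0.05 (median log2FC 0.36, 5 of 11 listed with enough reads). None of the 12 tested genes of the endfoot and its water channel scaffold passed either, and 3 had an unadjusted *p* under 0.05 (median −0.04). Of all 11751 genes tested in this fraction, 2927 had an unadjusted *p* under 0.05 by edgeR, so neither list stood out by this count. *Gpr37l1* was at 110 and 66.1 CPM (log2FC −0.74 ± 0.21, edgeR adjusted *p* = 0.0136), *Mlc1* at 25.3 and 35.3 CPM (0.46 ± 0.23, adjusted *p* = 0.19) and *Hepacam* at 30.7 and 31.4 CPM (0.02 ± 0.22, adjusted *p* = 0.977). *Hepacam* was picked as an example after its values were seen.

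The microglia fraction had low levels of the 9 genes, except *Glul*. *Glul* was at 51.6, 47.5 and 53.8 CPM in WT microglia and 34.9, 46.9 and 46.6 CPM in KIN microglia, with no overlap on this scale (they overlapped by library totals) and without a call (log2FC −0.25 ± 0.22, edgeR adjusted *p* = 0.771). In the order of its levels, WT astrocytes came first, and WT microglia, KIN astrocytes and KIN microglia followed with overlapping neighbours. WT astrocytes exceeded WT microglia by a log2FC of 1.05 ± 0.28 (edgeR adjusted *p* = 3.17e-03), which was 0.80 without astrocyte WT replicate 2 and 0.97 without microglia WT replicate 2, below the required size. KIN astrocytes and KIN microglia did not differ by this criterion (0.22 ± 0.19, edgeR adjusted *p* = 0.361). *Slc1a3* was at 8.61 to 11.0 CPM in WT and 9.91 to 12.5 CPM in KIN microglia (log2FC 0.20 ± 0.26, edgeR adjusted *p* = 0.877).

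*Slc1a2* was the one gene of the 6 tested that was called in microglia. It was at 10.7, 6.43 and 11.0 CPM in the WT and 1.98, 1.43 and 1.04 CPM in the KIN microglia libraries. In reads these were 36, 13 and 26 against 5, 4 and 3, so that KIN lies near the floor. The log2FC was −2.67 ± 0.40 (edgeR adjusted *p* = 3.89e-04), in a comparison in which 0.785% of 10831 genes were called lower and 0.739% higher. With library totals the split of 85 lower and 80 higher became 48 and 78. DESeq2 gave a log2FC of −2.70 and no adjusted *p* for it after its own filter on low means. *Slc6a11* had 7, 3 and 5 reads in WT and 0, 1 and 1 in KIN microglia. KIN was under the floor, at least 1.72-fold lower, and the gene was not called (edgeR adjusted *p* = 0.169). *Kcnj10* (12, 8 and 7 against 4, 6 and 6 reads) and *Gja1* (12, 9 and 4 against 4, 6 and 6 reads) were not called either, and *Slc4a4*, *Gjb6* and *Aqp4* had too few reads for the test. In the same libraries, the 11 other astrocyte markers summed to 13.9 to 29.1 CPM in WT and 9.05 to 14.3 CPM in KIN, with *Aldoc* and *Atp1b2* called lower, and the 10 neuron markers to 18.8 to 61.4 CPM and 10.3 to 12.9 CPM, with 4 called lower. WT replicate 2 stood apart from WT replicates 1 and 3. Its neuron markers were at 18.8 CPM against 61.4 and 46.2 CPM. Its other astrocyte markers were at 13.9 against 29.1 and 24.2 CPM, and its microglia markers at 1215 against 783 and 771 CPM. The 8 oligodendrocyte markers (32.6 to 36.2 CPM in WT, 19.0 to 20.4 CPM in KIN, none of 6 tested called by edgeR) and the 4 mural markers (2.97 to 3.86 CPM and 1.43 to 1.98 CPM, none tested) were lower in each KIN library than in each WT library, and ependymal markers were at 1.48 to 3.39 CPM and 0 to 1.39 CPM. Endothelial markers summed to 38.99 to 53.5 CPM and 46.6 to 51.5 CPM. Their part in the fall of *Slc1a2* was not tested.

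In the neuronal fraction, the 9 genes were at or near the floor. The neuron markers summed to 109 to 167 CPM in WT and 134 to 194 CPM in KIN. The library of WT replicate 2 stood apart, with oligodendrocyte markers at 273 CPM against 23.8 to 43.2 CPM in the other neuronal libraries, and astrocyte markers at 87.1 CPM against 14.6 to 32.6 CPM. *Slc6a11* and *Aqp4* had no read in any of the 6 libraries. A count of 0 allows up to 3 reads, so that WT astrocytes were at least 41.1-fold higher for *Slc6a11* and at least 10.2-fold higher for *Aqp4*. *Gjb6* had 1 read in 1 of the 6 libraries. *Slc1a2* had 1, 3 and 3 reads in WT and 6, 1 and 8 in KIN neurons, and *Glul* 8, 1 and 4 against 6, 7 and 12. The 4 genes tested there, *Slc1a2*, *Slc1a3*, *Glul* and *Kcnj10*, had log2FC between 0.03 and 0.47 with SEs of 0.61 to 0.90 and no call by edgeR. Without WT replicate 2 they were between −0.52 and 0.36, again with no call. With each library left out in turn, where the gene still passed the filter, *Kcnj10* ranged from 0.02 to 1.37, *Glul* from −0.52 to 0.74, *Slc1a3* from 0.02 to 1.04 and *Slc1a2* from −0.24 to 0.54, with *Kcnj10* and *Glul* highest without WT replicate 1 and *Slc1a3* without WT replicate 3. Of all 6765 genes tested in neurons, 0.0739% were called. By edgeR 341 genes had an unadjusted *p* under 0.05, none of them among the 9, and DESeq2 called 0 genes. With SEs of this size, the log2FC seen in astrocytes would be hard to detect at this depth.

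Whether the KIN effect differed between fractions was tested with an interaction term, and none of the 9 genes passed with edgeR or DESeq2. At an unadjusted *p* under 0.05 by edgeR there were 2, *Slc1a2* and *Glul*, in each of both terms. Of all genes, 1743 of 13277 were under it between microglia and astrocytes, and 1537 of 12358 between neurons and astrocytes. Between microglia and astrocytes, where 1.14% of all genes were called, *Slc1a2* differed by −1.31 ± 0.50 (edgeR adjusted *p* = 0.203), lower in microglia. *Glul* differed by 0.91 ± 0.33 (adjusted *p* = 0.174) and *Slc1a3* by 0.70 ± 0.37 (adjusted *p* = 0.418), with the higher log2FC in microglia. Between neurons and astrocytes, where 1.17% were called, the terms were 1.71 ± 0.70 for *Slc1a2* (edgeR adjusted *p* = 0.25), 1.38 ± 0.58 for *Glul* (adjusted *p* = 0.273) and 1.16 ± 0.65 for *Slc1a3* (adjusted *p* = 0.461). The calls in astrocytes are therefore not shown to be particular to that fraction. Both interactions share the astrocyte libraries. They treat the 12 libraries as independent, although fractions came from the same brains and the labels do not say which. With the replicate number as a block, none of the 9 genes passed either, while over all genes 234 higher and 124 lower were called for microglia in place of 103 and 49, and 50 and 15 for neurons in place of 113 and 31.

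Across the 6 groups, WT astrocytes had the highest mean level for 9 of 9 genes, with library totals as well. KIN astrocytes came second for each gene except *Glul*, and still exceeded KIN microglia by 63.7-fold for *Slc1a2*, 20.3-fold for *Gja1*, 7.91-fold for *Kcnj10* and 6.31-fold for *Slc1a3* (ratios of mean CPM). For *Gja1* the log2FC was 4.30 by the gene sum and 5.71 by its most abundant transcript. For *Slc6a11*, *Slc4a4*, *Aqp4* and *Gjb6* every KIN microglia library was under the floor, and KIN astrocytes were at least 45.7-fold, 24.7-fold, 21.7-fold and 5.91-fold higher. Among the groups of microglia and neurons, most neighbours in the order overlapped.

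Among the 5 other genes whose log2 CPM ran most like the mean profile of the 9 genes over the 18 libraries were *Gpr37l1* (Pearson r = 0.99), *Htra1* (0.99), *Tril* (0.99) and *Aldoc* (0.98), out of 1649 genes with a mean of at least 10 CPM in astrocytes. These 18 points share the fraction, and a high r mostly says that a gene is an astrocyte gene. Over the 6 astrocyte libraries alone they included *Tubb2b* (0.99), *Lrig1* (0.99), *Ptprz1* (0.99) and *Cst3* (0.99), where the points share genotype, scaling and depth. Of the genes named, *Htra1*, a secreted protease, had a log2FC of −1.55 ± 0.22 in KIN astrocytes (edgeR adjusted *p* = 1.96e-06; 87.0 and 29.9 CPM). *Cst3*, which encodes cystatin C, was at 261 and 129 CPM in astrocytes but at 1481 and 1506 CPM in microglia. The 9 genes themselves had r of 0.86 (*Aqp4*) to 1.00 (*Slc1a2*) with their own mean over the astrocyte libraries.

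The transcripts under each name were compared because isoforms share sequence and their reads may have been divided. All 62 are in GENCODE M39, 41 of them protein coding and 10 with a retained intron. The most abundant transcript of *Slc1a2* held 72.9% of its reads in WT and 75.3% in KIN astrocytes, that of *Glul* 73.9% and 74.3%, and that of *Slc6a11* 98.4% and 98.8%. *Gja1* was divided between ENSMUST00000068581 (48.7% in WT, 50.2% in KIN) and ENSMUST00000220069 (42.3% and 39.2%). *Kcnj10* had a single transcript. With the most abundant transcript in place of the sum, 6 genes were called lower in KIN astrocytes.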

How the data were processed

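MACE-seq (3′-end) libraries with molecular identifiers were made from 18 cell fractions. Per the labels and the study's methods, the authors collapsed duplicates, trimmed with cutadapt 4.6, mapped with Bowtie2 2.4.4 to mm39 and counted with HTSeq 2.0.2 without regard to strand, so antisense reads are not separated and reads shared by isoforms may be split. The deposited values used here are whole-number counts per transcript, not normalized. The same table holds 36 other per-sample columns and the authors' own comparisons (fold changes and p-values), which were not used.

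Counts were summed by gene name. The 137 entries without a name were kept, each under its own identifier. Comparisons used edgeR 4.0.16 in R 4.3.3 (quasi-likelihood test, TMM, two-sided), each on its own 3 with 3 libraries, or on 12 libraries with an interaction term. The filter and the values of the thresholds are those of the study, which however applied them to DESeq2 fold changes shrunk with ashr, while fold changes here are unshrunk; the prior count of fold changes was 0.125, and SEs were taken from log2FC and F. Levels are CPM with TMM factors over 18 libraries. The scripts were tested on simulated data. The 9 genes and the gene lists were chosen with earlier results of these data known. The genes named are the 9, called or described members of the fixed lists, and those among the 5 genes most like the mean profile over 18 and over 6 libraries; some genes of these lists are not reported here. Alternatives were DESeq2 1.42.0, 3 other scalings, 2 other filters, 1 fit of all libraries, no fold threshold, the replicate number as a block, the most abundant transcript, each library left out, and CPM by library totals. Depth ranged from 761481 to 3296398 counts.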

Additional observations from a re-analysis of the deposited data

How the results depend on the processing

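Of the 9 genes, the number called stayed within 1.5 times of the value given in each comparison and alternative, except that DESeq2 called 0 in microglia in place of 1, since it gave *Slc1a2* no adjusted *p*. Among single genes, 983 results under alternatives kept direction and call, 4 lost a call, 3 gained one and 9 turned direction; results without an adjusted *p*, such as that of *Slc1a2* in microglia with DESeq2, are not among these. In KIN against WT astrocytes, 6 of 9 genes were called lower in most settings, 8 with library totals, 7 with adjusted *p* alone (*Kcnj10* added), and 5 to 6 when 1 library was left out. Leaving out both number 2 libraries, chosen after seeing the data, also gave 5 (*Glul* at −0.87). *Glul* in WT astrocytes against WT microglia lost its call in 2 of the omissions given above, which left 8 of 9.

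The directions that turned were in neurons, where no gene was called and *Slc1a2* and *Glul* have few reads. *Slc1a2* was at −0.000936 with the replicate block, −0.30 with the most abundant transcript and −0.24 to 0.54 with 1 library left out. *Glul* was at −0.0217 with DESeq2, −0.00237 with DESeq2's size factors, −0.0294 with library totals, −0.0863 with the most abundant transcript and −0.52 to 0.74 with 1 library left out. The cause was not tested.

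Replicate numbers did not pair the libraries of both genotypes: same-numbered astrocyte libraries had correlations of −0.0042, 0.060 and −0.0083 of their deviations. With the replicate block 6 genes were called lower in astrocytes (*Slc1a2* −1.32, *Slc6a11* −1.49), and 866 of all genes lower and 332 higher.

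The counts over all genes moved more. With 1 library left out, 412 to 1055 genes were called lower and 161 to 472 higher in KIN astrocytes (754 and 285 with all libraries), 13 to 226 and 16 to 227 in microglia (85 and 80), and 0 to 22 lower in neurons (5). The highest counts came without WT replicate 2 in astrocytes and in microglia. The share of all genes called, beside which the 9 genes are read, moves with these counts. DESeq2 called 298 lower and 118 higher in KIN astrocytes, and 7 and 41 in microglia. Library totals shifted the median of all genes by 0.64 for WT astrocytes against WT microglia, with 2758 higher and 769 lower in place of 1671 and 1613, and raised the WT astrocyte means, that of *Slc1a2* to 329 CPM. With a mean of at least 10 counts no member was tested in neurons. The 4 genes tested in neurons had 0 to 12 reads per library, which limits their precision.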

Other observations

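*Gja1* reads were divided among transcripts in different shares in the 2 glial fractions. ENSMUST00000220204, a *Gja1* transcript without a defined coding sequence (chr10:56253545-56278609 on GRCm39), held 51.2% of the *Gja1* reads in microglia, with 10 reads in WT and 11 in KIN, and 0.889% in astrocytes, with 9 reads in WT and 2 in KIN. The main coding transcript, ENSMUST00000068581, held 9.76% in microglia and 49.1% in astrocytes. The transcript was singled out after its values were seen and the difference was not tested. Microglial levels of *Gja1* by gene sum therefore rest in part on ENSMUST00000220204. In WT its read numbers were alike, 10 in microglia and 9 in astrocytes, while ENSMUST00000068581 had 1 and 451. In neurons ENSMUST00000220204 had 4 reads in WT and 4 in KIN.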
